A study of Ovis aries with 14 samples.

Results

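SOD2, MT3 and TXN are 3 antioxidant genes that were followed through every array of a study of triclosan in fetal sheep hypothalamus. They were read through all array probes whose gene name or matched symbol was SOD2, MT3 or TXN, which gave 6 of 15008 probes and 3 of 963 named genes, with 2 probes per gene. Triclosan is an antibacterial agent, and it reached the fetus by either of 2 routes in late gestation, at around 130 days of fetal age. In the direct arm, catheterized fetuses received triclosan intravenously at 250 μg per day (fetal triclosan, n = 4) or vehicle (fetal vehicle, n = 4). In the indirect arm, the ewe received triclosan at 100 μg per kg per day (maternal triclosan, n = 3) or vehicle (maternal vehicle, 3 deposited arrays) into the maternal circulation. Both infusions lasted 2 days, after which RNA of the whole fetal hypothalamus was hybridised to Agilent ovine 15k 1-colour arrays. The doses are stated per animal in one arm and per body weight in the other, so the arms do not share a dose scale. The labels do not say that the replicates came from separate pregnancies, so p-values measure the spread between these samples.

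The third maternal vehicle array equalled 0.6 times the signal of the first plus 0.4 times that of the second, with a median residual of 0% over probes, against 9.81% or more for the best such mixture in any other group. It was left out, which left 13 arrays and n = 2 for maternal vehicle. Spots well above background made up 83.3% to 90.1% of each array, and 0 spots were saturated. Of 16 hypothalamic peptide genes listed, 10 were measured, all of them above background on at least some arrays of every group, while no listed neuron or oligodendrocyte marker was measured under its symbol.

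All 3 genes encode defences against reactive oxygen. SOD2 is the manganese superoxide dismutase of the mitochondrial matrix, which turns superoxide into hydrogen peroxide. MT3 is the metallothionein of the brain, a small cysteine-rich protein that binds zinc and copper and is best known from neurons and astrocytes. TXN is thioredoxin, a cytosolic and nuclear protein that reduces disulfides in other proteins and supplies electrons to peroxiredoxins.

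The probe sequences are shown because they decide what each pair of probes can tell apart. They are 60 bases long and come from the deposited scanner files, and capitals mark the bases that the probes of a pair have in common. No source used here names the genome build of the array design. For SOD2 the probes overlap by 30 bases.
SOD2 brighter probe: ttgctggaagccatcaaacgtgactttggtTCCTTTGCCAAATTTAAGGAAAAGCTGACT
SOD2 dimmer probe: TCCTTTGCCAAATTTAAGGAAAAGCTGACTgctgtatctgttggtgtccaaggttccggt
For MT3 they share 59 bases and are shifted by 1, so that they are nearly the same measurement.
MT3 brighter probe: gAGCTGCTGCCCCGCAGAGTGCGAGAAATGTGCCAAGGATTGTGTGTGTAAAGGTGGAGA
MT3 dimmer probe: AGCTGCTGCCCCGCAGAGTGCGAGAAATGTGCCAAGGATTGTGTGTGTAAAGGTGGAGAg
For TXN they share 15 bases, and the first 25 bases of the brighter probe, which end with the stop codon, are shown.
TXN brighter probe: AGCCACCATTAATGAattaatctaa
TXN dimmer probe: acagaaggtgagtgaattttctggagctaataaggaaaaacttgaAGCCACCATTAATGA
The longest run of bases that any of the 6 probes shared with a probe of another gene on the array was 16. Across the 13 arrays the probes of a pair moved together, with Pearson's r of 0.97 for SOD2, 0.98 for MT3 and 0.96 for TXN. These pairs read the same RNA on the same arrays, so their agreement says nothing about replication.

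Levels below are log2 of the scanner's processed signal minus the array's own 75th percentile, so that 0 is the brightness of the 75th percentile probe. All 6 probes were well above background on every one of the 13 arrays, 78 of 78 readings. Signals of different probes are not comparable as amounts of RNA, but the place of each probe in the brightness order bears on how it was measured. MT3 and TXN lay at percentiles 98.0 and 97.4 of all tested probes, and SOD2 at 70.7.

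**Figure D1:**
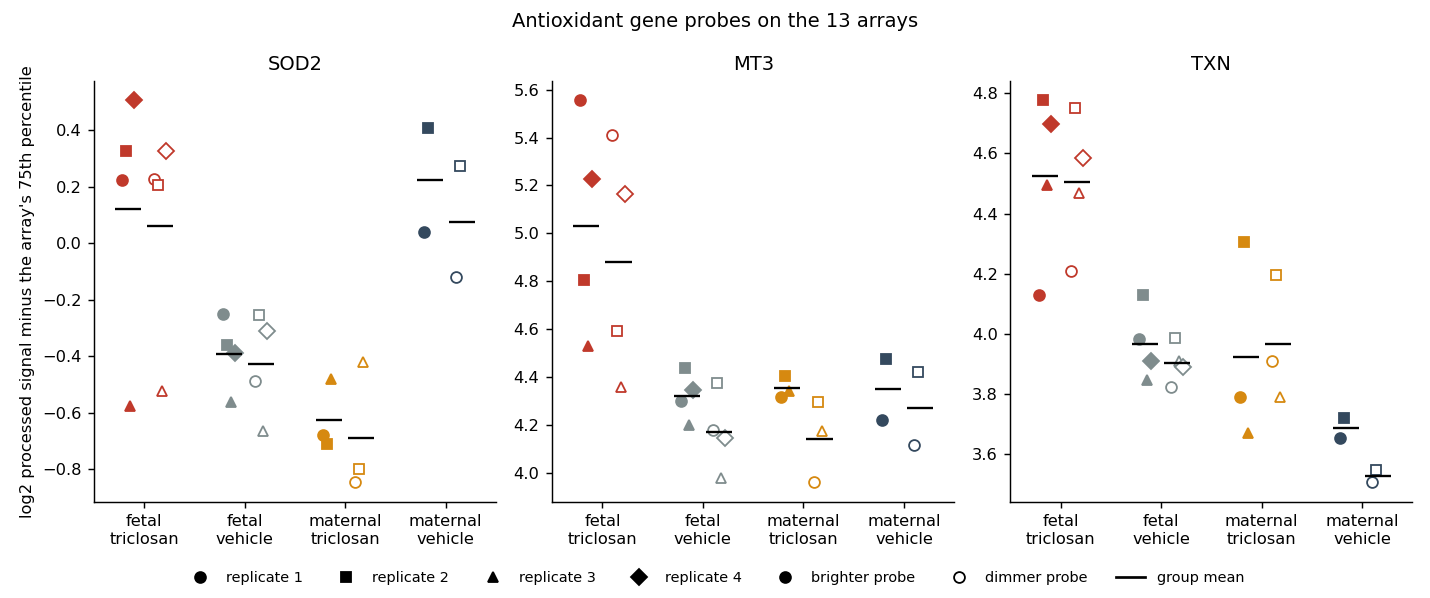
Level of each probe (log2 processed signal minus the array's 75th percentile) on each of the 13 arrays, by gene and group. Marker shape gives the replicate, filled markers the brighter probe, open markers the dimmer probe and bars the group mean. MT3 and TXN sit highest in fetal triclosan, where MT3 runs between 4.53 and 5.56, and SOD2 is lowest in maternal triclosan with fetal triclosan replicate 3 down among the fetal vehicle arrays.

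Direct infusion asks what 2 days of triclosan in the fetal circulation do to the hypothalamus. MT3 and TXN were higher in fetal triclosan than in fetal vehicle on both of their probes, by 1.47 to 1.64 times, and passed the test. SOD2 averaged 1.43 and 1.40 times higher on its probes and did not pass. Over the whole array limma called 917 of 13738 tested probes higher, or 6.67%, and 1595 lower, or 11.6%, at an adjusted p under 0.05 (limma, Benjamini-Hochberg over all tested probes). At an unadjusted p under 0.05 the shares were 13.1% higher and 20.1% lower. Against this background 4 of the 6 probes were called higher. In whole tissue, fewer cells of a type and less RNA per cell cannot be told apart.

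MT3 had levels of 5.56, 4.81, 4.53 and 5.23 on the fetal triclosan arrays, against 4.30, 4.44, 4.20 and 4.35 on the fetal vehicle arrays. Every fetal triclosan array was above every fetal vehicle array, and replicates 1 and 4 stood well above replicates 2 and 3. The group means were 5.03 ± 0.45 and 4.32 ± 0.10 (SD, n = 4 each), so the triclosan arrays varied more. Probes whose groups did not overlap in this direction made up 9.03% of all tested probes. The log2 difference was 0.71 (SE 0.19, 95% interval 0.29 to 1.12, limma adjusted p = 0.0255), a fold of 1.63. On the second MT3 probe the groups overlapped narrowly, with levels of 4.36 to 5.41 in fetal triclosan against 3.98 to 4.38 in fetal vehicle. Its difference was 0.71 as well (SE 0.21, limma adjusted p = 0.0399).

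TXN had levels of 4.13, 4.78, 4.49 and 4.70 in fetal triclosan, against 3.98, 4.13, 3.85 and 3.91 in fetal vehicle. The groups were apart by only 0.0023, the distance between fetal triclosan replicate 1 and fetal vehicle replicate 2. The means were 4.52 ± 0.29 and 3.97 ± 0.12 (SD, n = 4 each), a difference of 0.56 (SE 0.17, 95% interval 0.18 to 0.93, limma adjusted p = 0.0429). The other TXN probe separated the groups more clearly, with 4.21 to 4.75 in fetal triclosan against 3.82 to 3.99 in fetal vehicle, a gap of 0.22. Its difference was 0.60 (SE 0.13, 95% interval 0.31 to 0.89, limma adjusted p = 0.0119), or 1.52-fold.

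SOD2 had levels of 0.22, 0.33, −0.58 and 0.51 in fetal triclosan, against −0.25, −0.36, −0.56 and −0.39 in fetal vehicle. Of the fetal triclosan arrays, 3 were above all fetal vehicle arrays and replicate 3 was just below all of them on this probe, the brighter one. The means were 0.12 ± 0.48 and −0.39 ± 0.13 (SD, n = 4 each), and the difference of 0.51 (SE 0.21, 95% interval 0.06 to 0.96) did not pass (limma adjusted p = 0.109). Its other probe gave 0.49 (SE 0.20, limma adjusted p = 0.109). On that probe fetal triclosan replicate 3, at −0.52, lay within the fetal vehicle range of −0.66 to −0.25. Without fetal triclosan replicate 3 the SOD2 difference on the brighter probe was 0.74 (limma adjusted p = 0.00576). This fit drops the array that went against the rise. In the other 12 of 13 fits that left out 1 array SOD2 did not pass.

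The MT3 and TXN calls depended on how arrays were scaled. With quantile normalisation MT3 had 0.38 (limma adjusted p = 0.191) and TXN 0.28 (0.391), and with the log2 values the authors deposited MT3 had 0.34 (0.210) and TXN 0.21 (0.363). All 6 probes stayed above 0 in the direct arm under every alternative tried. The second TXN probe was called in 13 of 13 fits that left out 1 array, and under 11 of 13 other alternatives, all but these same 2. The first TXN probe was called in 3 of those 13 fits, without fetal triclosan replicate 1 or maternal triclosan replicate 2 or 3. MT3 was called in 9 of 13 on its brighter probe and in 2 of 13 on its dimmer one, without fetal triclosan replicate 2 or 3. The MT3 adjusted p was 0.0544 without fetal triclosan replicate 1, and 0.0599, 0.0747 and 0.0513 without fetal vehicle replicates 1, 3 and 4.

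Bright probes as a class moved upward in this arm, and that is the background against which MT3 and TXN stand. The median direct difference was −0.09 over all tested probes, and 0.24 in the brightest decile, where 377 of 1374 probes (27.4%) were called higher and 19 lower. MT3 lay 0.47 and TXN 0.32 above that decile median on their brighter probes. In the decile, 3.13% of the probes had a larger difference than MT3 and 12.3% a larger one than TXN. SOD2, in the eighth decile with a median of 0.05 and 9.32% called higher, was exceeded by 6.19% of its decile. Whether the trend with brightness contributes to the MT3 and TXN values was not tested.

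**Figure D2:**
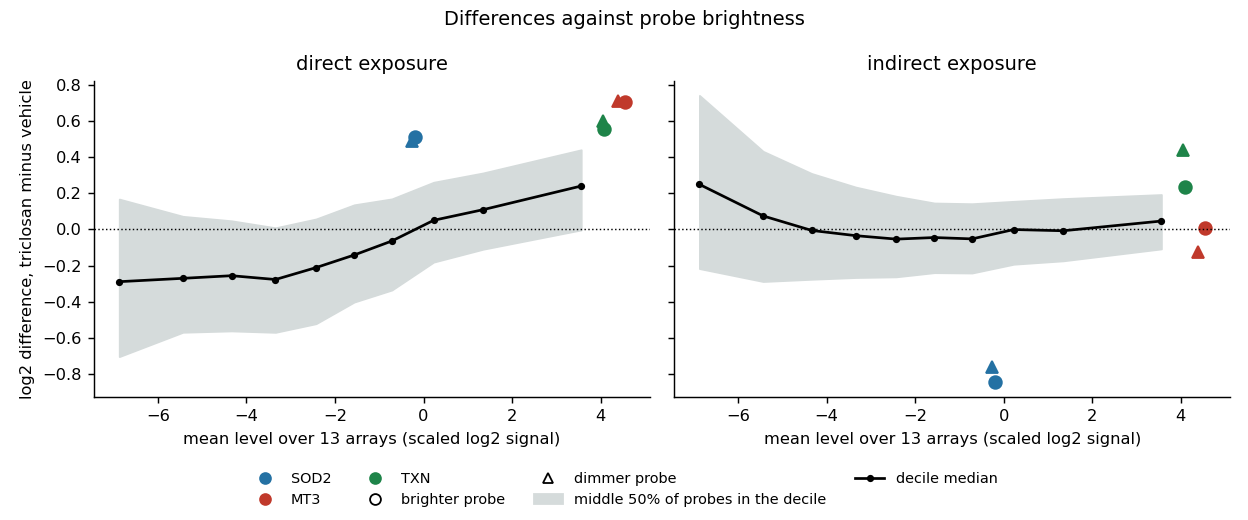
Log2 difference of triclosan minus vehicle against the mean level over 13 arrays, direct arm left and indirect arm right. The line and points are the median of each brightness decile of tested probes, the grey band spans the middle 50% of each decile, and coloured markers are the 6 member probes. In the direct arm the decile medians run from −0.29 in the dimmest to 0.24 in the brightest, and all members exceed the upper edge of the band in their decile.

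Slides held arrays of several groups, so the differences could be read within slides 1, 2 and 3, while fetal triclosan replicate 4 was alone on the fourth. Fetal triclosan replicate 4 was also scanned on a different day from all the other arrays used. Without it the direct differences on the brighter probes were 0.64 for MT3 (limma adjusted p = 0.0488), 0.50 for TXN (limma adjusted p = 0.0791) and 0.38 for SOD2 (limma adjusted p = 0.216). The part of scan day in these values was not tested. MT3 differed between fetal triclosan and fetal vehicle by 1.26, 0.37 and 0.26 on slides 1, 2 and 3. TXN differed by 0.15, 0.65 and 0.62 on these slides, and by 0.39, 0.77 and 0.57 on its other probe. SOD2 differed by 0.47, 0.69 and −0.10. MT3 and TXN were thus higher with triclosan on each of the 3 slides, with their largest differences on different slides, and SOD2 on 2 of 3. Slides 1 and 2 each set 1 triclosan array against 1 vehicle array, and slide 3 set 1 against 2. In the brightest decile, which holds MT3 and TXN, 74.8% of probes had a direct difference above 0. The share of probes higher on all 3 slides was not counted. With slide as a block the differences were 0.60 for MT3 (limma adjusted p = 0.0702), 0.47 for TXN (limma adjusted p = 0.0437) and 0.34 for SOD2 (limma adjusted p = 0.260).

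Each gene peaked on a different fetal triclosan array. Replicate 1 had the highest MT3 and the lowest TXN of the group, replicate 2 the highest TXN, replicate 4 the highest SOD2, and replicate 3 the lowest MT3 and SOD2. Over the deviations from group means on 13 arrays, MT3 and TXN had an r of −0.25, SOD2 and MT3 of 0.66, and SOD2 and TXN of 0.11. These values share arrays and scaling and describe these samples only.

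Indirect exposure asks the same of triclosan infused into the ewe. No probe on the array passed in this arm (0 of 13738, or 0% in each direction, by limma), while 652 were higher and 666 lower at an unadjusted p under 0.05, or 4.75% and 4.85%. None of the 6 probes was called. SOD2 was at its lowest in maternal triclosan, MT3 hardly differed between maternal triclosan and maternal vehicle, and TXN was somewhat higher in maternal triclosan.

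SOD2 had levels of −0.68, −0.71 and −0.48 in maternal triclosan, against 0.04 and 0.41 in maternal vehicle. All maternal triclosan arrays were below both maternal vehicle arrays, by a gap of 0.52. Of all tested probes, 19.6% did not overlap in this direction, a large share because the groups hold 3 and 2 arrays. The log2 difference was −0.85 (SE 0.27, 95% interval −1.43 to −0.26, limma unadjusted p = 0.00852, adjusted p = 0.437), and −0.76 on the other probe (SE 0.26, adjusted p = 0.445). In its brightness decile 0.655% of the probes had a lower value. The SOD2 difference was −0.72 within slide 1 and −1.12 within slide 2, each from 1 array against 1. Among the alternatives tried, it passed only with array weights (−0.88, limma adjusted p = 0.0367). Leaving out maternal vehicle replicate 1 or 2 gave −1.03 or −0.66, where the lone vehicle array was assumed to vary like the other groups.

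MT3 had levels of 4.32, 4.40 and 4.34 in maternal triclosan, against 4.22 and 4.48 in maternal vehicle. The triclosan arrays lay between the vehicle arrays. The difference was 0.0065 (SE 0.25, 95% interval −0.53 to 0.54, limma adjusted p = 0.994), and −0.13 on the other probe (SE 0.28), so its sign is not settled. The upper bounds of their intervals were 0.54 and 0.48.

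TXN had levels of 3.79, 4.31 and 3.67 in maternal triclosan, against 3.65 and 3.72 in maternal vehicle, and the groups overlapped. The difference was 0.24 (SE 0.22, 95% interval −0.25 to 0.72, limma adjusted p = 0.721). On its other probe the groups were apart, with levels of 3.91, 4.20 and 3.79 in maternal triclosan against 3.51 and 3.55 in maternal vehicle. That probe gave 0.44 (SE 0.17, 95% interval 0.06 to 0.81, limma unadjusted p = 0.0255, adjusted p = 0.473), among 19.3% of tested probes whose groups were apart in this direction. Maternal triclosan replicate 2 was the highest of its group on both probes, and without it the values were 0.04 and 0.32.

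**Figure D3:**
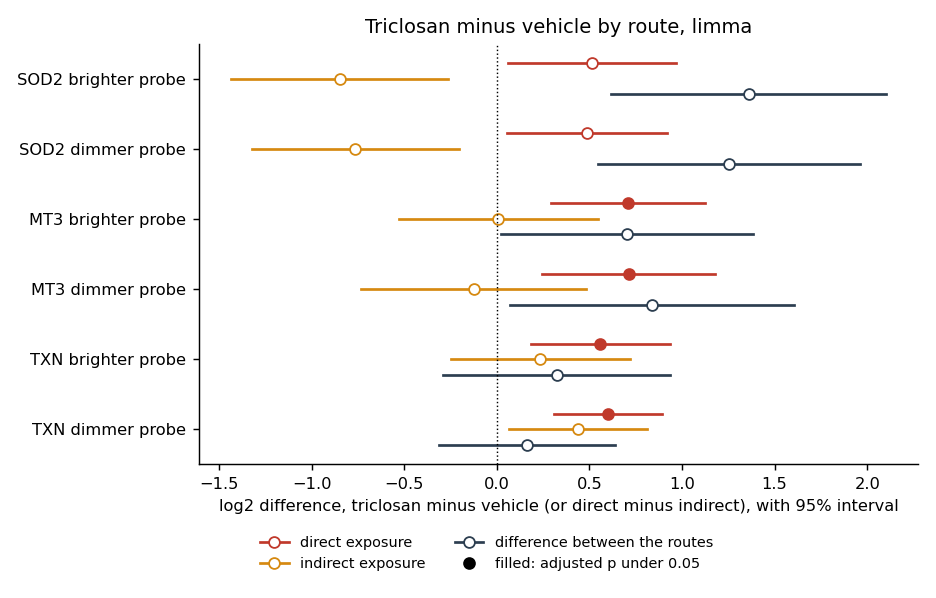
Log2 difference for each probe with its 95% interval from limma: triclosan minus vehicle in the direct arm, in the indirect arm, and the direct minus the indirect difference. Filled points have an adjusted p under 0.05. Both MT3 and both TXN probes are filled in the direct arm, no other point is filled, and the SOD2 points of the 2 arms lie on opposite sides of 0.

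The difference between the routes was tested in the same fit. SOD2 had a direct difference above 0 and an indirect one below 0, and the 2 differed by 1.36 (SE 0.34, 95% interval 0.62 to 2.10, limma unadjusted p = 0.00188). After adjustment over all probes this did not pass (limma adjusted p = 0.219), and its p ranked 113 of 13738 probes, with 0.815% of them smaller. A positive direct with a negative indirect value was found for 2387 tested probes (17.4%), and for 28 (0.204%) with an unadjusted p under 0.05 in both arms, SOD2 among them. Without fetal triclosan replicate 3 the route difference of SOD2 was 1.59 (limma adjusted p = 0.0457). In the other 12 of 13 fits that left out 1 array it did not pass. MT3 had a route difference of 0.70 (SE 0.31, limma adjusted p = 0.330) and TXN of 0.32 (SE 0.28, limma adjusted p = 0.572). The TXN value was 0.16 on its other probe, 0.08 with quantile normalisation, 0.0043 with the authors' values and 0.20 to 0.51 without 1 array. No probe passed for the route difference (0%), with 711 higher (5.18%) and 1313 lower (9.56%) at an unadjusted p under 0.05, so none of the 3 genes is shown to respond differently by route.

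The vehicle arrays of the arms were also compared with each other, and none of the 6 probes passed. SOD2 averaged 0.22 in maternal vehicle (n = 2) and −0.39 ± 0.13 in fetal vehicle (SD, n = 4), without overlap, a difference of 0.61 (SE 0.25, limma adjusted p = 0.999). No overlap in this direction was found for 10.1% of tested probes. MT3 had 4.35 in maternal vehicle and 4.32 in fetal vehicle, a difference of 0.03 (SE 0.23). TXN had 3.69 in maternal vehicle and 3.97 in fetal vehicle, a difference of −0.28 (SE 0.21), and −0.38 on its other probe (SE 0.16), and on both the groups were apart, as were 7.02% of tested probes in this direction. No probe passed in this comparison (0% by limma), with 216 higher (1.57%) and 242 lower (1.76%) at an unadjusted p under 0.05. The 2 vehicle groups received their infusion by different routes and share slides 1 and 2.

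Ordered by group mean, SOD2 ran from maternal vehicle (0.22) through fetal triclosan (0.12) and fetal vehicle (−0.39) to maternal triclosan (−0.62), and each pair of neighbours overlapped. MT3 was at 5.03 in fetal triclosan, and the other groups, at 4.36 in maternal triclosan, 4.35 in maternal vehicle and 4.32 in fetal vehicle, overlapped one another. TXN was at 4.52 in fetal triclosan, 3.97 in fetal vehicle, 3.92 in maternal triclosan and 3.69 in maternal vehicle. Its maternal triclosan range of 3.67 to 4.31 reached into all the other groups.

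Other genes of redox biology were read from 9 lists, of which the array measured 52 of 223 genes by symbol. In the direct arm 5 of the 52 were called higher and 3 lower, against 5.89% higher and 9.44% lower of 900 named genes tested. Leaving out the 3 antioxidant genes, 3 of 49 were higher and 3 lower. Their median difference was 0.01, beside −0.10 over all named genes. In the indirect arm 0 of the 52 were called, and their median was −0.01, beside 0.03 over all named genes.

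**Figure D4:**
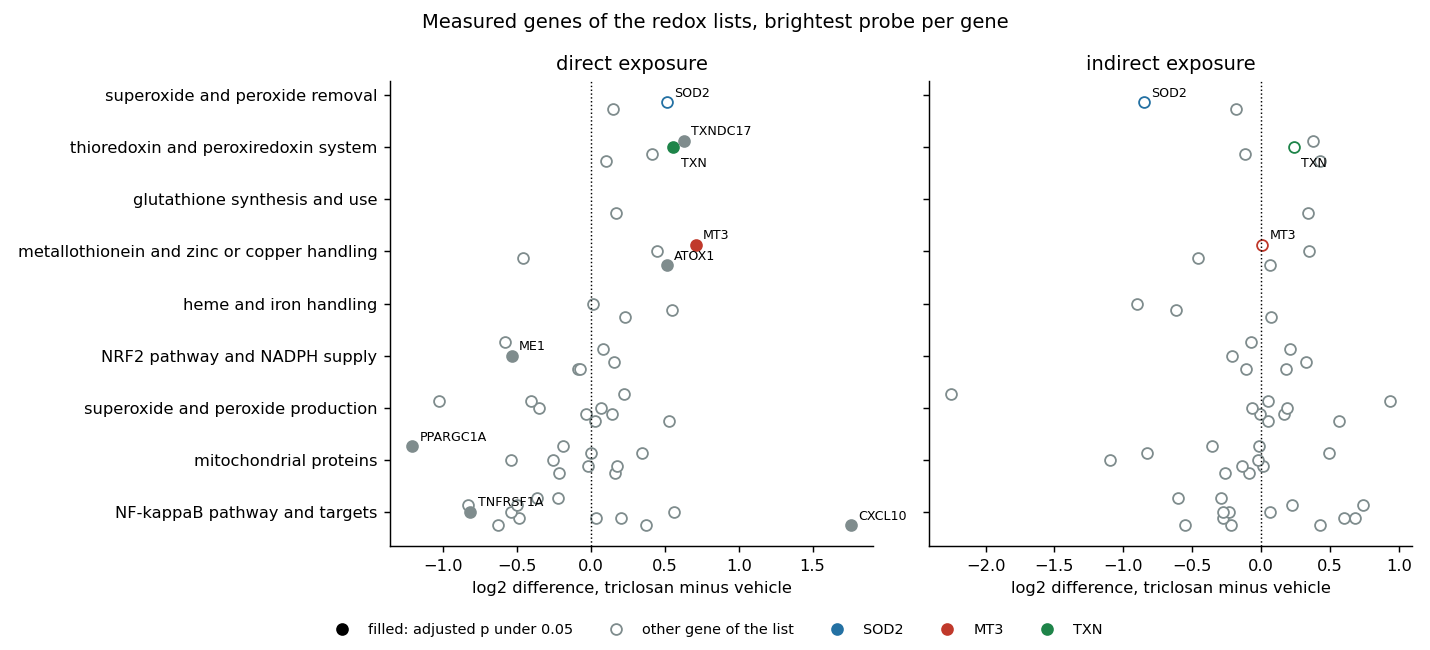
Log2 difference of triclosan minus vehicle for the 52 measured genes of the redox lists, direct arm left and indirect arm right, at the brightest probe of each gene. Filled points have an adjusted p under 0.05 and are named, as are the 3 antioxidant genes. In the direct arm 5 filled points lie right of 0 and 3 left of it, and in the indirect arm 0 are filled.

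In the list of the thioredoxin and peroxiredoxin system, 4 of 29 genes were measured. TXNDC17, a thioredoxin-like reductase of the cytosol, rose by 0.63 (SE 0.13, limma adjusted p = 0.0103) beside TXN. GLRX2, a mitochondrial glutaredoxin, had 0.41 and GLRX, its cytosolic relative, 0.10, and neither passed. Among metallothionein and metal handling genes, 4 of 25 were measured. ATOX1, the copper chaperone that delivers copper to secretory pathway pumps, rose by 0.51 (SE 0.11, limma adjusted p = 0.0113) on its brighter probe beside MT3, and its other probe was called too. TXNDC17 and ATOX1 were themselves bright, at percentiles 89.7 and 93.1, where probes as a class moved upward. Their values exceeded the upper quartiles of their deciles, 0.31 and 0.44. CP, the copper ferroxidase ceruloplasmin, had 0.45 and ATP7B, a copper-exporting pump, −0.46, and neither passed. MT4 was on the array but did not pass the filter on dim probes.

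Superoxide and peroxide removal held SOD2 and PON2, a lactonase with antioxidant activity, at 0.15. The cytosolic copper-zinc superoxide dismutase was not measured under a symbol, but a probe described as that sheep enzyme was among the brightest on the array, at percentile 98.9. This probe rose by 0.42 in the direct arm (SE 0.12, limma adjusted p = 0.0339) and had −0.03 in the indirect arm. Its direct value lay between the median (0.24) and the upper quartile (0.44) of the brightest decile, to which it belongs. Of the 1374 probes in that decile, 377 were called higher in the direct arm, so its rise does not stand out from equally bright probes. Glutathione genes were thinly covered. GSTA1, a glutathione transferase, had 0.17, and the 2 probes described as glutathione transferase M3 had 0.39 (limma adjusted p = 0.0452) and 0.37 (0.0605). The called M3 probe lay in the brightest decile, at percentile 90.1, and its value was below that decile's upper quartile of 0.44. Its rise thus does not stand out from equally bright probes either. A probe described as thioredoxin domain-containing protein 4 had 0.09 (limma adjusted p = 0.644). These described probes were singled out by their descriptions and stand outside the symbol lists.

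Heme and iron genes gave no call at their brightest probes. FTH1, the ferritin heavy chain, had 0.23, and 1 of its 3 probes, not the brightest, was called. TF, transferrin, had 0.01 and LTF, lactoferrin, 0.55. Of 6 measured genes of the NRF2 pathway and NADPH supply, ME1, the cytosolic malic enzyme that yields NADPH, fell by 0.54 (SE 0.15, limma adjusted p = 0.0325). PGD, a dehydrogenase of the pentose phosphate pathway, had 0.08, TALDO1, a transaldolase of the same pathway, −0.07 and IDH1, the cytosolic isocitrate dehydrogenase, 0.16. SQSTM1, an autophagy adaptor, had −0.58 (limma adjusted p = 0.0707).

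None of 9 measured genes of superoxide and peroxide production was called. CYBA, the p22phox subunit of NADPH oxidases, had 0.52 (limma adjusted p = 0.0752), and RAC1, a GTPase that activates them, 0.07. NOX5 had 0.14 and NOS3, endothelial nitric oxide synthase, −0.41. Of 10 mitochondrial genes, PPARGC1A, a coactivator of mitochondrial biogenesis, fell by 1.21 (SE 0.23, limma adjusted p = 0.0063). SLC25A4 and SLC25A5, the ADP/ATP carriers, had 0.16 and 0.18, VDAC1, the outer membrane channel, −0.19 and BCL2 −0.02. Of 13 genes of the NF-kappaB pathway, for which SOD2 is a known target in other mammals, CXCL10, an interferon-induced chemokine, rose by 1.76 (SE 0.52, limma adjusted p = 0.0359) and TNFRSF1A, the first TNF receptor, fell by 0.82 (SE 0.18, limma adjusted p = 0.0126). NFKBIA, the inhibitor that the pathway itself induces, had 0.20, PTGS2 0.56, IL1B −0.22 and TLR2 −0.36.

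Among 884 named genes with a value on every array, those whose levels over the 13 arrays were most like each gene were picked by Pearson's r. For SOD2 these were HIF1A (0.91), CAV1 (0.80) and RIT1 (0.78), and rank correlation picked the same 3. For MT3 they were CYBA (0.92), TBP (0.90) and ITM2B (0.90), and rank correlation picked 3 others. For TXN they were MGLUR4 (0.94), as the array design names it, ERP29 (0.93) and NDUFA12 (0.91), of which rank correlation kept 2. The likenesses mix differences between groups with those within them: over deviations from group means, 1 of the 3 remained for SOD2 and 0 for MT3 and for TXN. Of the genes named, HIF1A had direct and indirect differences of 0.40 and −0.27, and CAV1 of 0.07 and −0.81, neither passing in either arm.

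Markers of other cell types were summed on each array (linear, relative to its 75th percentile). The sums of 3 erythroid genes, of 11 listed, were 11.6 to 23.1 in fetal triclosan against 4.23 to 12.2 in fetal vehicle, and 1 of the 3 was called higher. These sums rest on the bright HBB, which was not called (direct difference 1.32, limma adjusted p = 0.0621). The gene called was AHSP (0.94, limma adjusted p = 0.0381), which is dim and adds little to the sums. CA1, also dim, had 1.14 and was not called. In the indirect arm the erythroid sums were 10.4 to 27.0 in maternal triclosan against 3.24 to 8.93 in maternal vehicle. Those of 5 endothelial genes, of 10 listed, were 0.552 to 0.750 in fetal triclosan against 0.803 to 1.14 in fetal vehicle, with 3 called lower. PECAM1, the brightest of the 5, had −0.26 and was not called. Of 900 named genes tested, 5.89% were called higher and 9.44% lower in the direct arm. In the indirect arm the endothelial sums were 0.846 to 0.948 in maternal triclosan against 0.958 to 1.05 in maternal vehicle. The erythroid groups thus lay apart in the indirect arm only, and the endothelial groups in both arms. Of single tested probes, 12.6% lay apart downward in the direct arm. In the indirect arm 19.3% lay apart upward and 19.6% downward.

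The sums of 5 astrocyte genes, of 11 listed, rest on the bright AQP4, the water channel of astrocyte endfeet. They were 63.5 to 90.8 in fetal triclosan against 61.9 to 76.2 in fetal vehicle, and 66.6 to 76.8 in maternal triclosan against 61.8 to 69.4 in maternal vehicle. AQP4 had a direct difference of 0.13 and an indirect one of 0.18, while the median of the 5 genes was −0.30 in the direct arm, where 1 was called lower, and −0.43 in the indirect arm, where 1 of 5 was above 0. Sum and median therefore point in opposite directions for this list.

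Hypothalamic peptide genes had differences above 0 for 10 of 10 in both arms, with medians of 0.98 and 1.05, and none passed. Of all tested probes, 24.6% were above 0 in both arms. The peptide sums were 9.39 to 56.1 in fetal triclosan against 9.20 to 19.5 in fetal vehicle. They were 24.6 to 35.0 in maternal triclosan against 11.2 to 15.8 in maternal vehicle, without overlap, as for 19.3% of single tested probes in this direction. SST was on average the brightest of the 10 peptide genes and so weighs most in these sums. The sums of 6 meninges and fibroblast genes were 72.5 to 88.0 in fetal triclosan against 48.8 to 75.3 in fetal vehicle, with 1 called higher, PTGDS, a prostaglandin synthase. PTGDS was also the brightest of the 6, and these sums rest mainly on it. The sums of 2 choroid plexus and ependyma genes ran from 0.249 to 10.3 in fetal triclosan against 0.514 to 2.53 in fetal vehicle. They were 0.303 to 0.658 in maternal triclosan against 0.931 to 1.41 in maternal vehicle. They rest on TTR, as AQP1 was well above background on only 3 of 13 arrays. Sums of 6 microglia and leukocyte genes and of 5 pituitary genes overlapped in both arms. The pituitary sums rest on the bright LHB, which had direct and indirect differences of 0.15 and 0.14. Of the dimmer pituitary genes, CGA had 0.01 and 3.82, and PRL −0.09 and −1.57. In the indirect arm 4 of the 5 pituitary genes were above 0, and none passed in either arm. The part of these cell type markers in the MT3, TXN and SOD2 values was not tested.

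**Figure D5:**
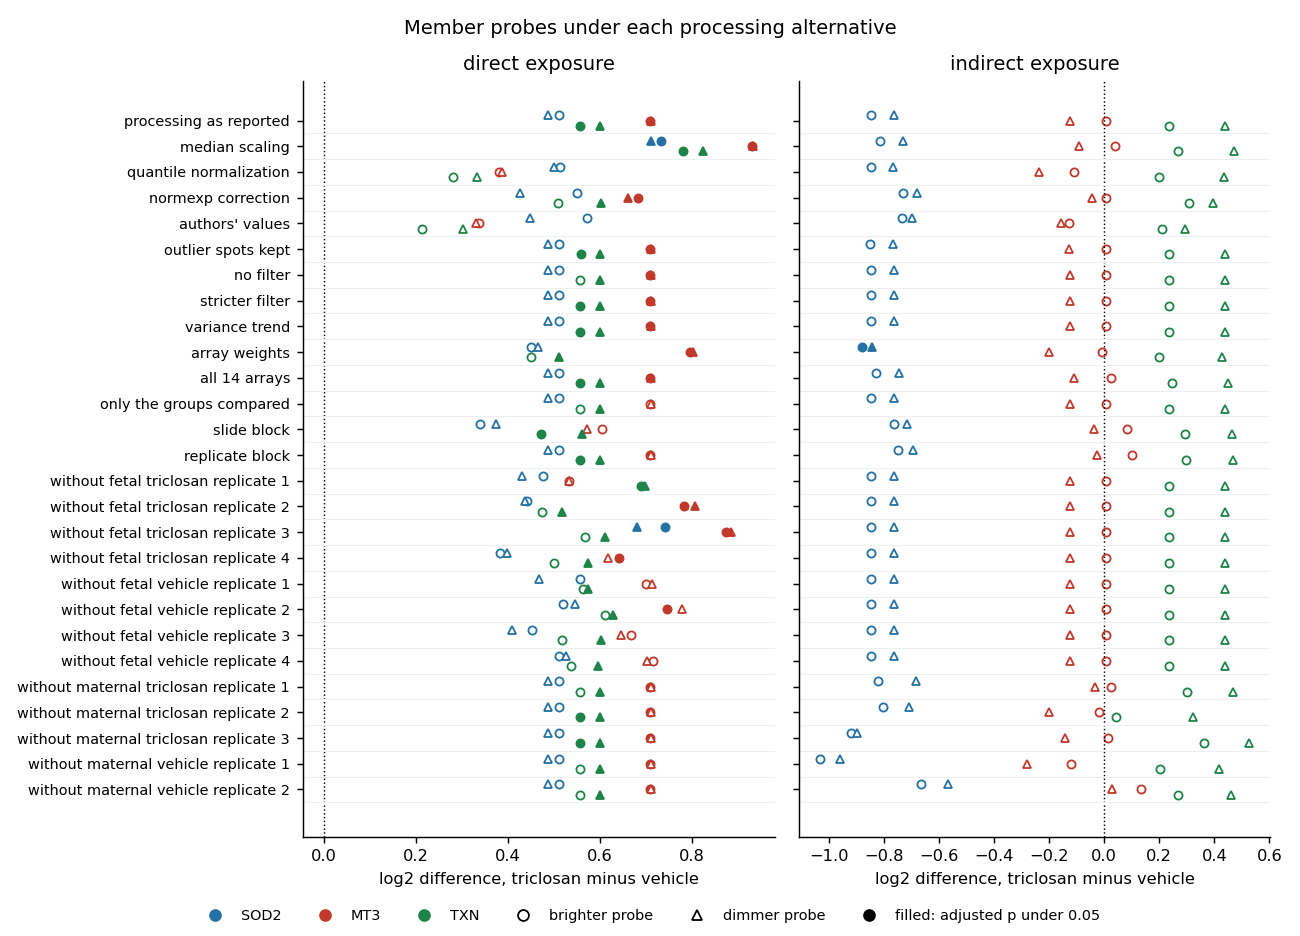
Log2 difference of triclosan minus vehicle for the 6 member probes (rows: processing as reported, 13 processing alternatives and 13 fits without 1 array), direct arm left and indirect arm right. Filled markers have an adjusted p under 0.05. All direct values lie above 0, the SOD2 values of the indirect arm all lie below 0, and MT3 straddles 0 there.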

How the data were processed

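Fetal hypothalamus RNA was measured on 14 one-colour Agilent arrays. Per the file headers, Agilent Feature Extraction 10.1.1.1 made the processed intensity of each spot, subtracting a spatially detrended background within the array, without normalisation between arrays. The deposited value table holds log2 values of the authors. Each column correlated best with its own array (medians 8.78 to 8.80), and no source used here names their normalisation, so these values served as an alternative. Replicate 3 of maternal vehicle was left out as a mixture of replicates 1 and 2.

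Log2 processed signals were reduced by each array's 75th percentile. Control spots and outlier spots were dropped and probes well above background on at least 3 arrays kept (13738 of 15008). Symbols came from the files and from RefSeq names of sheep, with 1554 probes named, and SOD2 through its gene number, MT3 and TXN through their transcripts. limma 3.58.1 in R 4.3.3 fitted all 4 groups (9 residual degrees of freedom), with Benjamini-Hochberg adjustment over all tested probes and a threshold of 0.05; the test was tried on simulated data. The number of arrays limits the precision. Genes of the redox lists were named if called, with up to 4 others per list of highest mean signal; a gene was read at its brightest probe, and 1 gene that this rule names is not reported here. The 3 genes and the lists were chosen with earlier results of these data known. Samples were not paired by replicate number in the main fit. Same-numbered arrays of the direct arm had correlations of deviations of 0.132, 0.118, 0.265 and −0.173. The pairs numbered 1, 2 and 3 also shared a slide, so number and slide cannot be told apart there. Fetal triclosan replicate 3 and fetal vehicle replicate 4, on the same slide, had 0.143. Alternatives covered scaling, background, filters, variance model, array weights, groups fitted, blocks and single arrays. Promoter and protein sequences were not analysed here.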

Additional observations from a re-analysis of the deposited data

Results flagged for a closer look

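SOD2 on fetal triclosan replicate 3 lay far from the other arrays of its group on the dimmer probe. Its level was −0.52, against 0.23, 0.21 and 0.33 on fetal triclosan replicates 1, 2 and 4, and the gap to the nearest array took 0.861 of the group's range, above Dixon's 95% critical value for 4 arrays. Of 12 groups of 4 arrays tested for the 6 probes, this was the 1 that passed, and about 1 in 20 groups would pass by chance.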

How the results depend on the processing

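Outside the single-array fits, SOD2 passed in the direct arm with median scaling (0.73, adjusted p = 0.0417) and in the indirect arm with array weights (−0.88). The direct call of MT3 was lost at 0.38 (quantile normalisation), 0.34 (the authors' values), 0.71 (only the groups compared, adjusted p = 0.0761) and 0.60 (slide block). That of TXN was lost at 0.28 (quantile normalisation), 0.21 (the authors' values), 0.51 (normexp), 0.45 (array weights), 0.56 (no filter, adjusted p = 0.0503) and 0.56 (only the groups compared, adjusted p = 0.0690). The indirect value of MT3 was −0.11 with quantile normalisation, −0.13 with the authors' values, −0.0069 with array weights and −0.060 for the mean of its probes. Its vehicle difference was −0.0065 with median scaling, −0.089 with the slide block and −0.029 with the replicate block. Without 1 array, direct values were 0.38 to 0.74 for SOD2, 0.53 to 0.88 for MT3 and 0.47 to 0.69 for TXN, the SOD2 route difference 1.17 to 1.59, the indirect MT3 value −0.12 to 0.14 and the MT3 vehicle difference −0.10 to 0.16. Called probes numbered 2512 in the direct arm, 1589 with quantile normalisation, 1286 with only the groups compared and 1222 to 2954 without 1 array (1222 without fetal vehicle replicate 3, 1634 without replicate 1). Median scaling called 2159 higher and 926 lower, against 917 and 1595, and moved the median of all probes to 0.13. In the indirect arm 385 probes passed with array weights, 11 with all 14 arrays and 0 to 2 without 1 array. For the route difference 1 passed with quantile normalisation, 7 with all 14 arrays and 0 to 48 without 1 array (48 without fetal triclosan replicate 3). Between the vehicles 0 to 2 passed without 1 array (2 without maternal vehicle replicate 2). The fit of all 14 arrays counts the mixture as a replicate. With a replicate block the direct differences were 0.51, 0.71 and 0.56 for SOD2, MT3 and TXN, and 2818 probes passed in the direct arm. The main fit did not treat the replicate numbers as pairs. The cause of these changes was not tested. Precision is limited by 2 to 4 arrays per group.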
